A study of Solanum lycopersicum with 2 samples.

Results

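Sucrose leaves the photosynthesising leaf through the phloem and is split again where carbon is used. The 8 genes described here carry out these steps in tomato (Solanum lycopersicum): the cell wall invertases LIN5, LIN6, LIN7 and LIN8, the vacuolar invertase TIV1, the sucrose synthases SUS1 and SUS3, and the sucrose transporter SUT1. They were taken by locus identifier, and all 8 were rows of the table of 34725 gene models. RNA was sequenced from young primary leaf of mature plants of the cultivar Ailsa Craig, from SlCycB2 overexpression plants (SlCycB2-OE) and from plants carrying an RNAi construct against the same gene (SlCycB2 RNAi). SlCycB2 is a B-type cyclin gene, and the series asks about its part in multicellular trichomes, the leaf hairs used in defence, and in reproductive organs. Each group was 1 library, and a wild-type leaf was not analysed here. The sources used here do not state the promoter of the constructs or how many lines and plants each library represents.

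Invertases cut sucrose irreversibly into glucose and fructose, and their address in the cell sets their use. Cell wall invertases act outside the cell and help unload sucrose into growing organs, flowers, fruits and infected or wounded tissue, while vacuolar invertase sets the balance of sucrose and hexoses stored in the vacuole. Sucrose synthase works in the cytosol, reversibly, and gives fructose and UDP-glucose, a precursor of cell walls and starch. SUT1 is a proton-coupled carrier in the phloem, and in leaves it loads sucrose for export. A mature leaf that exports sugar is called a source, and a young importing leaf a sink.

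Levels are given as RPKM, reads per kilobase of each gene model relative to all mapped reads, so that they can be compared between genes. Identifiers and names are paired from general knowledge of tomato genetics. The deposited table carries no names, and the RefSeq gene table used for names (assembly SLM_r2.1) holds 0 of its identifiers. It lists 6 of the 8 names as a symbol or synonym. LIN6 is under Wiv-1, TIV1 under AI, SUT1 under LeSUT1 and SUS1 under LOC543961. For all 6 the chromosome was the one in the identifier. LIN5 and SUS3 were not found in it, so these names rest on general knowledge alone.

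The leaf label was checked with 6 loci listed from general knowledge as photosynthesis genes of mesophyll, the green inner leaf tissue. They stood at 8218 to 20710 RPKM in the SlCycB2-OE library and 8614 to 25689 RPKM in the SlCycB2 RNAi library. The 1 locus listed for pollen was at 0 in both, and of the 2 listed for ripe fruit 1 was at 0 in both and the other at 1.89 RPKM in SlCycB2-OE and 0.87 RPKM in SlCycB2 RNAi. Libraries were compared as log2((RPKM + 1) / (RPKM + 1)), SlCycB2-OE over SlCycB2 RNAi, for the 19466 genes whose RPKM averaged at least 1 over both libraries. The median of these was 0.13 rather than 0, and a gene at that value sits in the middle of the distribution. With 1 library on each side the variation among plants was not measured, and no test was made. SlCycB2 itself was not checked by name. In whole leaf, fewer cells of a type and less RNA per cell cannot be told apart.

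The levels of the 8 genes spanned from undetected to among the most abundant transcripts, and their order was the same in both libraries. SUT1 was highest, followed by TIV1, LIN8, SUS3, LIN6, SUS1 and LIN7, and LIN5 was listed at 0. SUT1 alone made up 82.4% of the summed RPKM of the 8 genes in SlCycB2-OE and 76.4% in SlCycB2 RNAi. Some neighbours in this order were close, among them TIV1 and LIN8 in the SlCycB2 RNAi library at 29.72 and 27.87 RPKM, and LIN6 and SUS1 in the same library at 3.27 and 3.13 RPKM.

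**Figure D1:**
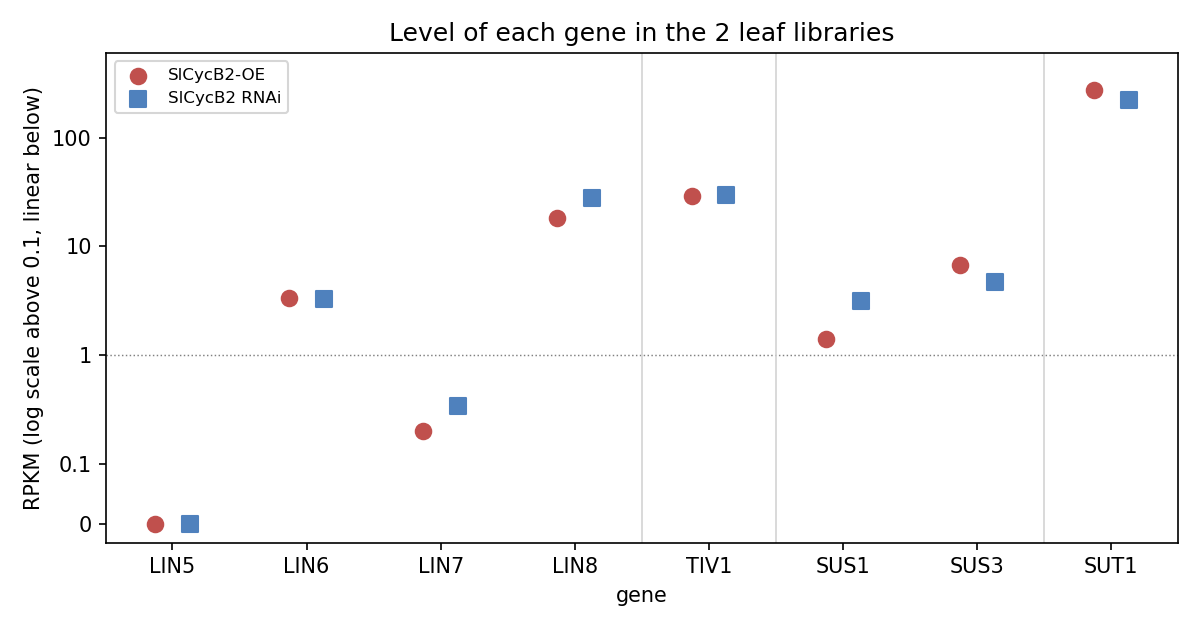
RPKM of each gene (vertical axis, log scale above 0.1 and linear below) in the SlCycB2-OE library (circles, left) and the SlCycB2 RNAi library (squares, right), 1 library each and so no error bars. The dotted line marks 1 RPKM. SUT1 is highest in both libraries, at 275.62 and 223.35 RPKM, LIN5 at 0 in both, and the widest gap on this scale is that of SUS1.

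Of the 8 genes, 6 reached the mean of 1 RPKM and were compared, and LIN5 and LIN7 did not. None of the 6 was 2-fold apart on the pseudocount scale, 0 higher and 0 lower, where 4.52% of all compared genes were, 2.6% higher and 1.92% lower in SlCycB2-OE. Among the 6, 3 lay above 0 and 3 below, where 67.8% of all compared genes lay above, with a median log2 difference of -0.0039, against 0.13 for all compared genes. The differences ran from -0.77 for SUS1 to 0.44 for SUS3, both sucrose synthases.

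**Figure D2:**
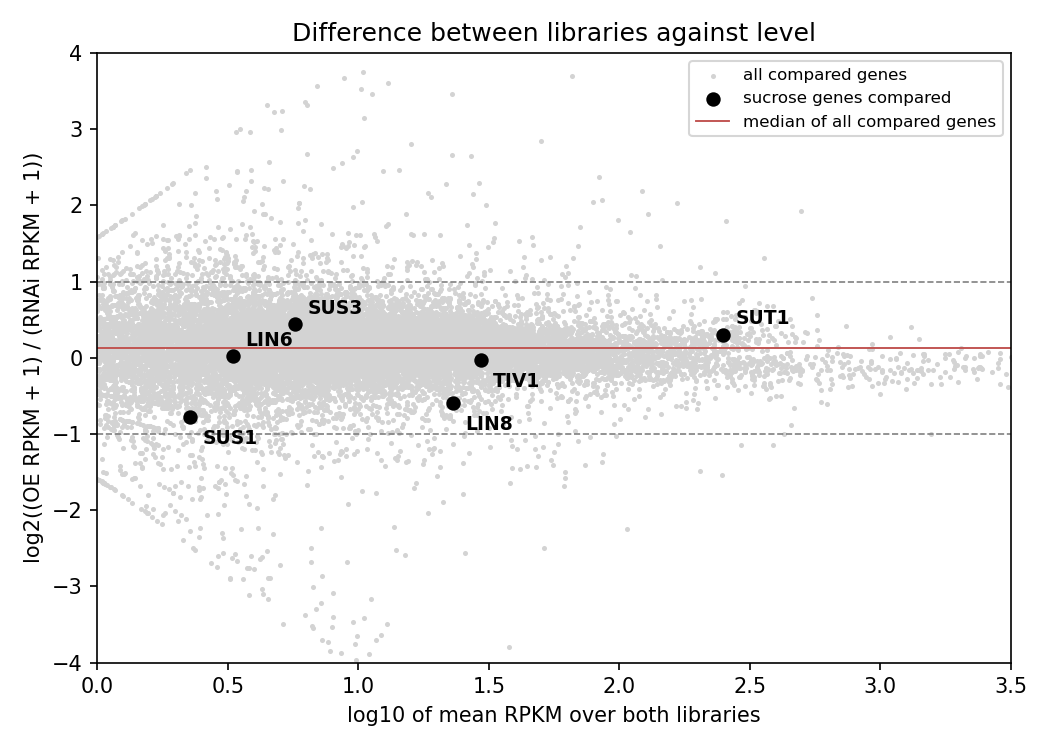
Log2 difference with a pseudocount of 1, SlCycB2-OE over SlCycB2 RNAi (vertical axis), against the log10 of mean RPKM (horizontal axis) for all compared genes (grey) and the 6 sucrose genes compared (black). Dashed lines mark 2-fold, the red line marks the median of all compared genes at 0.13, and 73 genes lie outside the axes. All 6 sucrose genes lie between the dashed lines, with SUS1 and LIN8 nearest the lower one.

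Among the cell wall invertases, LIN8 carried most of the expression and most of the difference. LIN8 (Solyc10g083300) is a cell wall invertase gene known from vegetative tissue. It had 18.21 RPKM in SlCycB2-OE and 27.87 RPKM in SlCycB2 RNAi, so that the RNAi level was 1.53 times the overexpression level. The log2 difference with the pseudocount was -0.59, and 4.54% of all compared genes were lower. After centring on the median of all genes it was -0.72. LIN8 held 83.8% of the summed cell wall invertase RPKM in SlCycB2-OE and 88.5% in SlCycB2 RNAi.

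LIN6 (Solyc10g083290), a cell wall invertase of sink tissues that responds to wounding, sugars and cytokinin, is the direct neighbour of LIN8, with 0 rows of the table and 0 genes of the RefSeq table between them. It stood at 3.33 RPKM in SlCycB2-OE and 3.27 RPKM in SlCycB2 RNAi. Its log2 difference was 0.020, and -0.11 after centring, so its sign depended on scaling. The pair thus differed in balance: LIN8 had 5.47 times the RPKM of LIN6 in SlCycB2-OE and 8.52 times in SlCycB2 RNAi, a comparison that no scaling of a library can change. This ratio restates the gap of LIN8, since LIN6 hardly differed, and adds no evidence to it. LIN6 is low, and among the 500 genes nearest it in level the standard deviation of log2 differences was 0.59. The sources used here do not say how reads that fit more than 1 gene were treated, and sharing of reads between these related neighbours was not tested.

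The other neighbouring pair is LIN5 and LIN7 on chromosome 9, again with 0 rows between them. LIN7 (Solyc09g010090) is known from anthers and pollen and was near the floor, at 0.2 RPKM in SlCycB2-OE and 0.34 RPKM in SlCycB2 RNAi. LIN5 (Solyc09g010080), known from flowers and young fruit and from natural variation in fruit sugar, was listed at 0 in both. Both reproductive members of the family were thus barely detected or undetected in these leaves. The read totals are unknown, so no upper limit can be put on LIN5.

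The 4 cell wall invertases summed to 21.74 RPKM in SlCycB2-OE and 31.48 RPKM in SlCycB2 RNAi, so that the RNAi sum was 1.45 times the overexpression sum. This sum follows LIN8. It was lower in SlCycB2-OE under every scaling run, by a log2 ratio of -0.53 as deposited and -0.69 at the far end. The scalings shifted ratios by at most 0.15 and so could not have turned this sign.

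TIV1 (Solyc03g083910), the vacuolar acid invertase best known from ripening fruit, differed little. It had 29.13 RPKM in SlCycB2-OE and 29.72 RPKM in SlCycB2 RNAi. The log2 difference was -0.028, and -0.16 after centring. With LIN8 lower beside it, TIV1 made up 57.3% of the RPKM of the 5 invertases in SlCycB2-OE and 48.6% in SlCycB2 RNAi. LIN8 had 0.625 times the RPKM of TIV1 in the overexpression leaf and 0.938 times in the RNAi leaf.

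**Figure D3:**
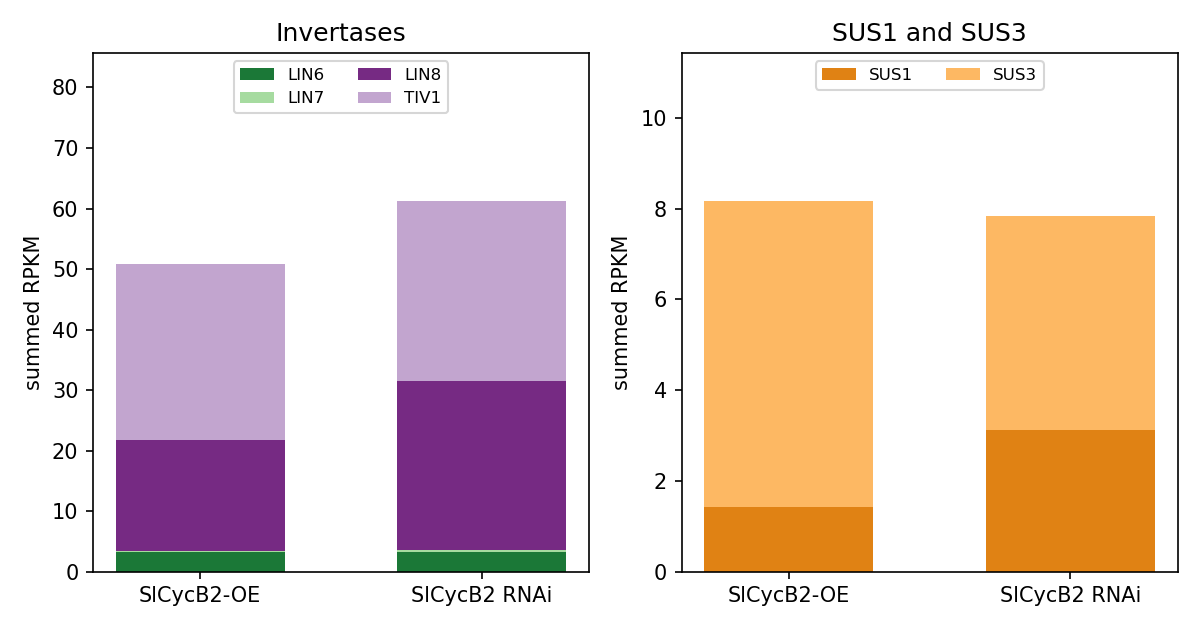
Summed RPKM (vertical axes, from 0) of the invertases (left panel; LIN5 is at 0 in both) and of SUS1 and SUS3 (right panel), SlCycB2-OE bar left and SlCycB2 RNAi bar right in each. The invertase bars reach 50.87 and 61.2 RPKM with the gap in the LIN8 segment, while the SUS1 and SUS3 bars are of like height, 8.16 and 7.84 RPKM, with a smaller SUS1 segment in SlCycB2-OE.

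SUS1 and SUS3 differed in opposite directions and nearly cancelled in the sum of the pair, which leaves out other loci listed as sucrose synthases. With 4 such loci, described with the wider list, the sum was 29.69 RPKM in SlCycB2-OE and 37.09 RPKM in SlCycB2 RNAi. SUS1 (Solyc12g009300) had 1.42 RPKM in SlCycB2-OE and 3.13 RPKM in SlCycB2 RNAi, the widest gap of the 6 genes compared. SUS3 (Solyc07g042550) had 6.74 RPKM in SlCycB2-OE and 4.71 RPKM in SlCycB2 RNAi.

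For SUS1 the RNAi level was 2.20 times the overexpression level. Both levels are low, and the log2 difference with the pseudocount was -0.77, short of 2-fold. Of all compared genes, 2.97% were lower. With a pseudocount of 5 it was -0.34, smaller than the -0.50 of LIN8 on that scale, and with a pseudocount of 0.1 it was -1.09, past 2-fold. With 0.1, 2.94% of all compared genes were at least 2-fold lower, and 6.63% of those averaging 1 to 5 RPKM, where SUS1 lies. Counting error is not known here. With a pseudocount of 1, 5.74% of genes averaging 1 to 5 RPKM were as low as SUS1 or lower, against 1.77% of genes at 5 RPKM or more. Gaps of 2-fold either way were found in 8.47% and 2.78% of these genes.

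For SUS3 the overexpression level was 1.43 times the RNAi level. The log2 difference was 0.44, which 16.2% of compared genes exceeded, and 0.30 after centring. The gene therefore lay above the middle of the distribution but well inside it.

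Because the 2 genes differed in opposite directions, the makeup of the pair differed more than either gene. SUS3 had 4.75 times the RPKM of SUS1 in SlCycB2-OE and 1.5 times in SlCycB2 RNAi, a 3.15-fold gap that scaling cannot change. This gap follows from the ratios of the single genes and adds no evidence to them. It was taken without a pseudocount and depends on the low levels of SUS1. SUS1 made up 17.4% of the pair in SlCycB2-OE and 39.9% in SlCycB2 RNAi. The sum was 8.16 RPKM in SlCycB2-OE and 7.84 RPKM in SlCycB2 RNAi, a log2 ratio of 0.058 that turned to -0.077 after centring and -0.095 with a trimmed mean of ratios. SUS1 and SUS3 together made up 13.8% of the RPKM of the 7 sucrose-cleaving enzymes in SlCycB2-OE and 11.4% in SlCycB2 RNAi.

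SUT1 (Solyc11g017010), the phloem loader, was among the most abundant transcripts of the leaf. It had 275.62 RPKM in SlCycB2-OE and 223.35 RPKM in SlCycB2 RNAi, above 98.2% and 97.9% of the detected genes of those libraries. The ratio was 1.23, the log2 difference 0.30, and 28.3% of compared genes were higher. After centring the difference was 0.17. Set against the invertases, SUT1 had 9.46 times the RPKM of TIV1 in SlCycB2-OE and 7.52 times in SlCycB2 RNAi. It had 15.1 times the RPKM of LIN8 in SlCycB2-OE and 8.01 times in SlCycB2 RNAi.

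**Figure D4:**
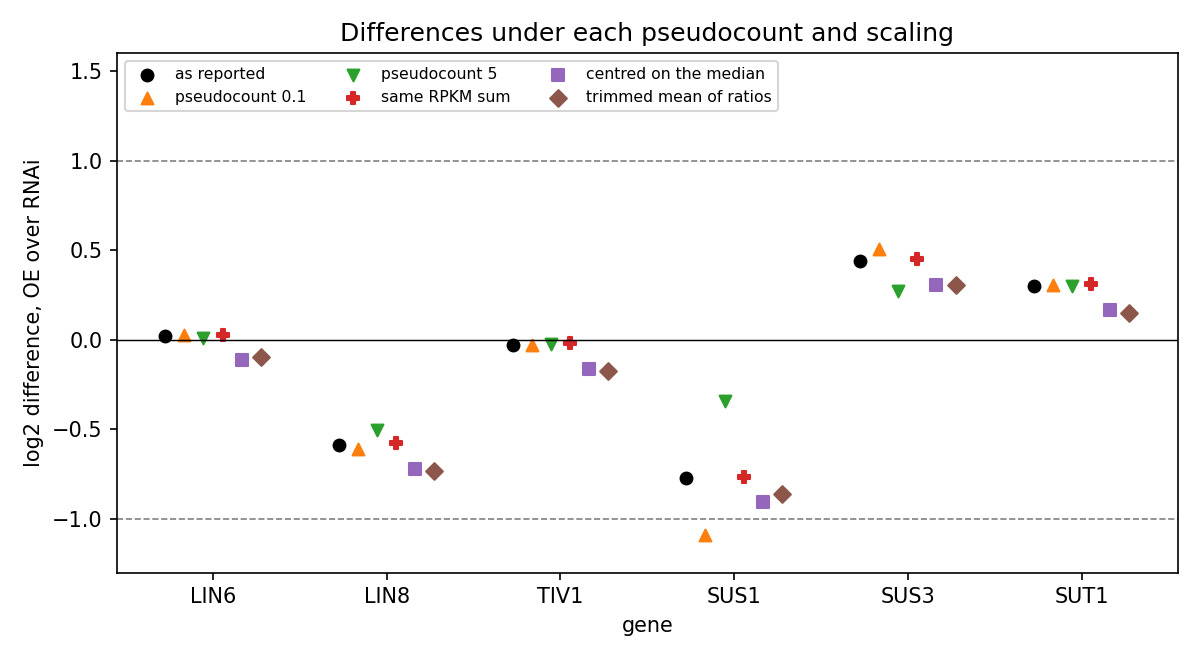
Log2 difference, SlCycB2-OE over SlCycB2 RNAi (vertical axis), of the 6 genes compared, as reported and under each other pseudocount and scaling (symbols); dashed lines mark 2-fold. LIN8 and SUS1 stay below 0 and SUS3 and SUT1 above 0 in each, LIN6 crosses 0, and SUS1 passes 2-fold with a pseudocount of 0.1.

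Further genes of the pathway were taken as lists of identifiers from general knowledge, whose functions were not checked against an annotation. The first held 13 loci listed as other sucrose synthases, sucrose transporters, sucrose-phosphate synthases, a vacuolar invertase and invertase inhibitors. Of these, 12 were compared, and with a pseudocount of 1 there were 0 at least 2-fold higher and 0 lower, where 2.6% and 1.92% of all compared genes were. Their median log2 difference was -0.10, against 0.13 for all compared genes, and they ran from -0.92 to 0.51. In the list, 4 loci lay above 0 and 8 below, where 67.8% of all compared genes lay above. Their summed RPKM was 128.56 in SlCycB2-OE and 123.28 in SlCycB2 RNAi.

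The lowest of that list, Solyc07g042520, lies near SUS3 by identifier. It stood at 0.88 RPKM in SlCycB2-OE and 2.55 RPKM in SlCycB2 RNAi, the RNAi level being 2.90 times the overexpression level, a wider gap than that of SUS1, and was singled out after its value was seen. Its log2 difference was -0.92, and it passed 2-fold at -1.44 with a pseudocount of 0.1 and at -1.05 after centring. With 0.1, 6.63% of genes averaging 1 to 5 RPKM, where this locus lies, were at least 2-fold lower. The 4 loci listed as other sucrose synthases were set apart after their values were seen. All 4 were lower in SlCycB2-OE, by -0.92 to -0.16 as reported, where 67.8% of all compared genes lay above 0. Their signs were the same under each pseudocount and scaling run, which adds no evidence. A pseudocount cannot turn a sign, and the scalings moved these values down or hardly at all. The 4 loci summed to 21.53 RPKM in SlCycB2-OE and 29.25 RPKM in SlCycB2 RNAi. The second list held 8 loci listed as fructokinases and hexokinases, the enzymes that phosphorylate the sugars released from sucrose. All 8 were compared and 0 were 2-fold apart either way, where 4.52% of all compared genes were. Their differences ran from -0.55 to 0.19, with a median of 0.047 that turned to -0.088 after centring.

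The 6 photosynthesis loci used to check the tissue were all lower in SlCycB2-OE as deposited, by log2 differences of -0.32 to -0.038. By comparison, 67.8% of all compared genes lay above 0. Of the 6 loci, 0 were 2-fold apart, where 4.52% of all compared genes were. The summed RPKM of the 6 loci was 68507 in SlCycB2-OE and 79985 in SlCycB2 RNAi. SUT1, with a log2 difference of 0.30, lay on the other side of 0, and LIN8 and SUS1 lay below the whole range of these loci. Both have far lower levels than the loci. Among the 500 genes nearest in level, the standard deviation of log2 differences was 0.61 for SUS1 and 0.48 for LIN8. The part of leaf age or cell makeup in the differences of the sucrose genes was not tested.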

How the data were processed

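RNA was measured in 2 leaf libraries, 1 for each group. The deposited values are RPKM, which the authors calculated, per the file headers, and they carry 2 decimals. TopHat is named in the submitters' processing notes. The version, build, annotation, counting program and strand use were not given in the sources used here.

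From the low values of 2589 genes, the worth of 1 read in SlCycB2-OE over that in SlCycB2 RNAi was scanned from 0.25 to 4. At 1.02, the ratios of 28.0% of genes lay within 0.01, in natural log units, of a fraction of whole numbers up to 3, and at 1.53, a simple multiple, 22.8% did. The relative depth is thus not settled, and the absolute depth is unknown. Differences used a pseudocount of 1, which understates those of low genes, and a mean RPKM of at least 1. All 8 genes were named by rule. Genes and lists were chosen with earlier results of these data known. The procedure was tested on simulated data with an assumed depth and no variation among plants. Changes larger than 2-fold were placed only in genes averaging at least 5 RPKM. The test therefore does not cover low genes or the smaller differences described here. The alternatives were other pseudocounts, scalings, filters and a 4-fold limit. Python 3.11.15, numpy 2.4.6, pandas 2.3.3 and matplotlib 3.10.9 were used.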

Additional observations from a re-analysis of the deposited data

How the results depend on the processing

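None of the 6 compared sucrose genes was 2-fold apart under the other settings run, except 1, SUS1, lower with a pseudocount of 0.1. Of the 12 compared loci of the wider sucrose list, 1 was 2-fold lower with a pseudocount of 0.1 and 1 after centring. Under the other pseudocount and scalings 0 were apart. With 0.1, 2.94% of all compared genes were at least 2-fold lower, and 6.63% of those averaging 1 to 5 RPKM. The count for the wider list was added after seeing the data, with settings planned for the other results. Counts of genes at least 2-fold higher and lower in SlCycB2-OE were 506 and 373 of 19466 as reported. They were 901 and 573 with a pseudocount of 0.1, 141 and 128 with 5, and 369 and 482 after centring. At the 4-fold limit they were 96 and 99. Among the 13541 genes averaging at least 5 RPKM they were 222 and 155. Higher genes were 57.6% of those apart as reported, 43.4% after centring and 46.0% with a trimmed mean of ratios. Across the settings LIN8 ran from -0.73 to -0.50, SUS1 from -1.09 to -0.34, SUS3 from 0.27 to 0.51, SUT1 from 0.15 to 0.31, TIV1 from -0.18 to -0.018 and LIN6 from -0.11 to 0.028 (log2). A pseudocount cannot turn the sign of a ratio, and the scalings shifted ratios by at most 0.15. At a mean RPKM of at least 5, LIN6 and SUS1 were not compared, and the median of the remaining genes was 0.14. Low genes are limited by the unknown depth. With 1 library per group no replicate could be left out. No paired analysis was possible because each side of the comparison has a single library.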

Other observations

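The rows of the table next to each sucrose gene, 5 on either side by identifier, were mostly within 2-fold where they could be compared. The same holds for genes at large, since 4.52% of all compared genes were 2-fold apart. Around LIN8, leaving out LIN6, 8 of 9 neighbours were compared, with log2 differences from -0.70 to 1.32 and a median of 0.058, and 1 was 2-fold higher in SlCycB2-OE. Around SUS1, 6 of 10 were compared, from -1.69 to 0.43 with a median of -0.19, and 1 was 2-fold lower. Around SUS3, 5 of 10 were compared, from -0.92 to 0.48 with a median of 0.31, and 0 were 2-fold apart. The lowest was Solyc07g042520, of the wider sucrose list, and SUS3 itself was at 0.44. Around SUT1, 7 of 10 were compared, from -0.43 to 0.65 with a median of 0.26, beside 0.30 for SUT1 itself.

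With 2 libraries the pattern of a gene is a pair of levels, and many genes share one. Both RPKM values were within 10% of those of TIV1 in 253 other genes, of SUS3 in 234, of LIN6 in 174, of SUT1 in 34, of LIN8 in 21 and of SUS1 in 17. These counts depend on how many genes lie at each level as well as on the ratio. They therefore do not rank the genes by how rare their difference is.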
